A study of Rattus norvegicus with 6 samples.

Results

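The miR-99/100 and miR-125 genes are small families of miRNA genes that sit beside let-7 genes in the genome. Their members were chosen by gene symbol (miR-99a, miR-99b, miR-100, miR-125a and miR-125b, with or without a copy number), which found 5 of the 32883 genes in the table of small RNA reads: Mir99a, Mir99b, Mir100, Mir125a and Mir125b1. The table held 458 miRNA genes in all. All 5 genes had reads in each of the 6 libraries and reached the mean of 5 normalized reads needed for a test. No row was found under the symbols Mir125b2, Mirlet7a2 or Mirlet7e, so these 3 cluster partners were not analysed here.

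The libraries came from INS-1 cells, a rat β-cell tumour line that still secretes insulin, of which 6 clonal lines were grown. The parent is a subline with an mCherry reporter, a red fluorescent protein, and the medium held 7.5 mM glucose with no treatment. The 3 control lines (5-9, 2 and 16) carry a deletion of the Prader-Willi syndrome (PWS) imprinted domain on the silent maternal chromosome, and the 3 PWS lines (3, 19-1 and 19-4) carry in addition a deletion on the active paternal chromosome. The maternal edit is thus common to both groups, every line descends from line 5-9, each line is a clone, and 19-1 and 19-4 are sister subclones, so p-values measure the spread between related clones of 1 tumour line. The comparison asks whether these miRNAs, which lie outside the domain, differ between the genotypes, and whether neighbours in a cluster keep the same ratio in every line.

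A miRNA gene is transcribed as a hairpin that Drosha and Dicer cut to a short mature RNA, which guides an Argonaute protein to messenger RNAs. Pairing rests mainly on the seed, bases 2 to 8 of the mature RNA. miR-125 is the vertebrate counterpart of the worm timing RNA lin-4 and is linked with let-7 in animals from insects to mammals; Lin28 mRNAs, whose proteins block let-7 maturation, are among its known targets. miR-99 and miR-100 are known for repressing the growth kinase mTOR and its partner Raptor.

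Since the seed defines which family a member belongs to, the mature sequences are shown with the seed in capitals. They are RefSeq entries on assembly GRCr8, written 5′ to 3′, and all 5 genes had an entry of some kind in that table. rno-miR-99a-5p had no mature entry.
rno-miR-100-5p: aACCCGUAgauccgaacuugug
rno-miR-99b-5p: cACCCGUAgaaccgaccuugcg
rno-miR-125a-5p: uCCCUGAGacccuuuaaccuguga
rno-miR-125b-5p: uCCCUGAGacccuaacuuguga
rno-miR-351-5p: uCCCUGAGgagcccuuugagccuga
rno-let-7c-5p: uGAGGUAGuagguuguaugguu

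miR-100-5p and miR-99b-5p shared the seed ACCCGUA, and of their 22 bases 18 were the same. The differences, counted from 1 at the 5′ end of miR-100-5p, were A1C, U11A, A16C and U21C. miR-125a-5p and miR-125b-5p shared their first 13 bases, seed CCCUGAG included, and differed by 2 bases in length (24 against 22). The same seed was found in 1 further rat sequence of the 693 mature RNAs in the table, miR-351-5p, the product of a gene outside the let-7 clusters. let-7c-5p, the partner made beside miR-99a, carries the unrelated seed GAGGUAG.

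The hairpins of Mir99a and Mir100 are shown because a read of the one can resemble a read of the other. Capitals mark the letters ACCCGUA, which each hairpin holds at bases 14 to 20 and nowhere else.
Mir99a hairpin: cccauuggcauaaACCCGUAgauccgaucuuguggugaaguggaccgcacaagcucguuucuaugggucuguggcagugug
Mir100 hairpin: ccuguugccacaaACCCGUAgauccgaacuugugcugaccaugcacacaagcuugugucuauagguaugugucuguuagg

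From the base before these letters the 2 hairpins ran together for 15 bases, differed at 1 base and were the same again for 6 bases. Reads of Mir99a and Mir100 were therefore separated by little sequence, and the less abundant of these genes is the less certain. miR-125b-5p is also the product of Mir125b2, so the reads listed for Mir125b1 cannot be assigned to that locus alone. For Mirlet7c1 and Mirlet7c2, which both give let-7c-5p, the ratio of reads lay between 1.00 and 1.02 in every line, and for the rarer copies Mir124-1 and Mir124-2 between 0.869 and 1.20. Reads of Mirlet7c1 and Mirlet7c2 were the same in both deposited tables, and what divided them between copies was not tested.

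In GRCr8 the members lie in 3 clusters, named here by neighbours only, since the deposited table was made on another assembly (Rnor_6.0, per the submitters' processing notes). On chromosome 8, Mir100 and Mir125b1 flank Mirlet7a-2 within Mir100hgl. On chromosome 11, Mir99a precedes Mirlet7c1 and Mir125b2 within the long noncoding gene LOC103693508. On chromosome 1, Mir99b and Mir125a flank Mirlet7e within Spaca6, a gene for a sperm protein. Each cluster thus holds 1 miR-99/100 gene, 1 let-7 gene and 1 miR-125 gene.

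The whole libraries are summarised here only for what touches these genes. Recovered depth ran from 7373691 to 16480475 reads per line, of which miRNA genes took 88.5% to 90.0%. The deleted domain, 102 genes found by symbol, summed to between 7095 and 11050 normalized reads in the controls and to between 2.10 and 9.23 in PWS lines, as the genotype labels state. Reads of β-cell markers were present (7 of 7, summed level 1299799 to 2084302 in controls and 1311655 to 1853402 in PWS lines, almost all of it Mir375 and Mir7a1), whereas fragments of Gcg, Sst, Ppy, Ghrl, Irx2 and Hhex, which mark other islet cells, were at 0 in all lines. Insulin mRNA fragments were few: Ins2 had 22.7, 10.5 and 30.1 normalized reads in control lines 5-9, 2 and 16 and 16.0, 6.30 and 0 in PWS lines 3, 19-1 and 19-4, and group means of Ins1 were 194 ± 83.2 and 125.1 ± 51.6 (SD, n = 3). PWS line 19-4 stood apart: it had the lowest level of the 6 lines for 108 of the 228 miRNA genes that averaged 20 normalized reads or more (47.4%), and control line 5-9 had the highest for 99 (43.4%). Control line 2 came next after line 19-4, lowest for 45 (19.7%), and was almost as shallow, with 7634142 reads against 7373691.

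The 5 genes spanned 4 orders of magnitude in abundance. Levels are given as normalized reads, which are read counts divided by a size factor per library; they were compared between genes without division by length, since each read is 1 short RNA and the mature lengths differ by at most 2 bases. Mir125a and Mir99b, the outer genes of the chromosome 1 cluster, were ranked 24 and 25 among all miRNA genes. Mir125b1 was ranked 65, Mir99a 132 and Mir100 238. Together the 5 genes took 1.89% of miRNA reads on average, and between 1.47% and 2.31% in single lines.

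Each step down this order held in every line, except the first. Mir125a exceeded Mir99b in 5 of 6 lines, with a ratio between 0.809 and 1.59 and a mean log2 ratio of 0.35 ± 0.34 (SD, n = 6), a step about as large as its SD. Mir99b exceeded Mir125b1 in 6 of 6 lines, by 9.02 to 19.4 times. Mir125b1 exceeded Mir99a by 6.50 to 26.2 times, and Mir99a exceeded Mir100 by 16.5 to 110.3 times, again in 6 of 6 lines each. Because of this order, Mir99b supplied 99.01% to 99.58% of all miR-99/100 reads. Mir125a supplied 92.1% to 94.5% of the reads listed for Mir125a and Mir125b1. Mir125b2, which gives the same mature RNA as Mir125b1, had no row, so the share of Mir125a in the whole family is not known.

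**Figure D1:**
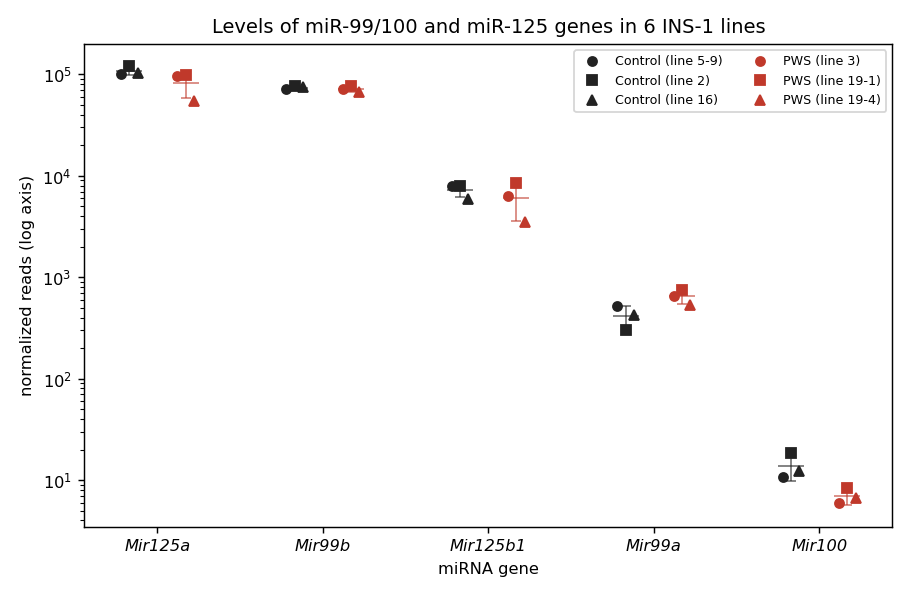
Normalized reads of each of the 5 genes (log axis) in 3 control lines (black) and 3 PWS lines (red), with the mean and SD of each group as bars. Mir125a and Mir99b lie between 54752 and 121136 in every line, Mir100 lies between 5.94 and 18.3, and the PWS lines sit above all controls for Mir99a and below all controls for Mir100 and Mir125a.

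Mir99a (ENSRNOG00000035524), which shares its seed with the far more abundant Mir99b, was the member with higher values in PWS lines. It had 517, 302 and 428 normalized reads in control lines 5-9, 2 and 16, and 655, 755 and 538 in PWS lines 3, 19-1 and 19-4. Every PWS line lay above every control line, but line 19-4 exceeded line 5-9 by little. The group means were 416 ± 108 and 649 ± 109 normalized reads (SD, n = 3), a ratio of 1.56. Its log2 fold change, PWS minus control, was 0.66 ± 0.28 (SE; 95% interval 0.079 to 1.25), and limma-trend gave an unadjusted p of 0.0284 and an adjusted p of 0.831 over all genes tested, so Mir99a was not called. The exact 95% counting interval was 474 to 563 normalized reads in control line 5-9 and 264 to 344 in control line 2. Without control line 2 the log2 fold change was 0.45. Such intervals cover counting error only, and in bulk libraries fewer cells that express a gene and less RNA per cell cannot be told apart.

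Mir100 (ENSRNOG00000035502), which partners Mir125b1 on chromosome 8, ran the other way at a very low level. Its normalized reads were 10.8, 18.3 and 12.3 in control lines 5-9, 2 and 16 and 5.94, 8.40 and 6.59 in PWS lines 3, 19-1 and 19-4, from 11, 14, 16, 10, 8 and 5 reads. Each PWS line had less than any control line. Means were 13.8 ± 3.95 and 6.98 ± 1.28 normalized reads (SD, n = 3), and the log2 fold change was -0.87 ± 0.39 (SE; 95% interval -1.71 to -0.043; limma unadjusted p = 0.0405, adjusted p = 0.831), which was not called. Within single lines the counting intervals were wide, 5.41 to 19.4 normalized reads in control line 5-9 and 2.14 to 15.4 in PWS line 19-4, and they overlap. Pooled over each group, 23 reads against 41 gave a PWS to control ratio of 0.508, with a counting interval of 0.291 to 0.867. That interval treats reads as independent and leaves out the spread between clones, so it is no test of the genotypes.

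Mir100 reads numbered 2.10%, 6.06% and 2.88% of Mir99a reads in control lines 5-9, 2 and 16, and 0.907%, 1.11% and 1.23% in PWS lines 3, 19-1 and 19-4. Control line 2 had both the fewest Mir99a and the most Mir100 normalized reads. Whether any Mir100 reads arose from miR-99a, which is so close in sequence, was not tested.

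Mir125a (ENSRNOG00000035572), the most abundant member, had 101528, 121136 and 102999 normalized reads in control lines 5-9, 2 and 16. It had 96404, 97684 and 54752 in PWS lines 3, 19-1 and 19-4. The PWS lines all lay below the controls, lines 3 and 19-1 by a small margin and line 19-4 by a wide one. Means were 108554 ± 10921 and 82946 ± 24426 normalized reads (SD, n = 3), and the log2 fold change was -0.43 ± 0.23 (SE; 95% interval -0.93 to 0.063), which limma did not call (adjusted p = 0.848). Without line 19-4, which was also the lowest line for many other miRNA genes, it was -0.16.

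Mir125b1 (ENSRNOG00000035550), whose product is the closest relative of miR-125a, had 7974, 7926 and 5972 normalized reads in control lines 5-9, 2 and 16, and 6276, 8429 and 3494 in PWS lines 3, 19-1 and 19-4. The groups overlapped: the highest and the lowest value were both PWS subclones of the same edited line. Means were 7291 ± 1142 and 6066 ± 2475 normalized reads (SD, n = 3). Its log2 fold change of -0.34 ± 0.29 (SE; 95% interval -0.95 to 0.26; limma adjusted p = 0.887) was not called, and without line 19-4 it was 0.0092.

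Mir99b (ENSRNOG00000035654) was the steadiest of the 5. It had 71887, 76152 and 74388 normalized reads in control lines 5-9, 2 and 16, and 72154, 76547 and 67702 in PWS lines 3, 19-1 and 19-4. The groups overlapped, and the highest line exceeded the lowest by only 1.13 times, against 2.21 times for Mir125a from the same cluster. Means were 74142 ± 2143 and 72135 ± 4423 normalized reads (SD, n = 3), and the log2 fold change was -0.041 ± 0.19 (SE), with a 95% interval of -0.44 to 0.36 and a limma adjusted p of 0.979. That interval bounds the difference but does not show that the genotypes are alike. Over the 6 lines the coefficient of variation was 4.51% for Mir99b, 23.0% for Mir125a, 27.7% for Mir125b1, 30.2% for Mir99a and 44.0% for Mir100. Mir100, with 64 reads in all, includes the most counting error.

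None of the 5 genes was called. At an adjusted p under 0.1, limma called 0 of 5, beside 55 of all 4292 genes tested (1.28%), all of them lower in PWS lines (lower 1.28%, higher 0%). The genes tested include those of the deleted domain. In the study's own comparison, all but 3 of 58 differing small RNAs belonged to the domain. How many of the 55 did was not counted here. edgeR on the recovered reads called 0 of 5 beside 58 of 4292 genes (1.35%), and DESeq2 0 of 5 beside 58 of the 8907 genes to which it gave an adjusted p (0.651%). At an unadjusted p under 0.05 limma had 2 of 5 (Mir99a and Mir100) beside 5.96% of all genes; edgeR and DESeq2 each had 1, Mir99a, beside 224 of 4292 genes (5.22%) and 161 of 8907 (1.81%). Leaving out control line 2, or PWS line 3, brought the limma count of members to 0. Leaving out PWS line 19-1 brought it to 3, a different set: Mir100, Mir125a and Mir125b1 passed, and Mir99a did not (limma unadjusted p = 0.115). The groups did not overlap for 3 of 5 members, against 11.2% of all genes tested and 15.8% of the 259 miRNA genes tested. By direction, 1 member lay higher in all PWS lines (4.87% of all genes and 3.09% of miRNA genes did) and 2 lay lower (6.29% of all genes and 12.7% of miRNA genes). The shares over all genes include genes of the deleted domain, which are lower because they were removed. With 5 genes the shares of members rest on very few values.

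The median log2 fold change of the 5 members was -0.34, with 4 below 0 and 1 above. Over all miRNA genes tested it was -0.14, with 180 of 259 below 0, and over all genes 0.0048. The lower values of Mir125a and Mir125b1 thus stood beside a lower median of miRNA genes as a class. Summed over members, the miR-99/100 genes came to 74572 ± 2041 normalized reads over the controls and 72791 ± 4532 over the PWS lines (SD, n = 3). Mir125a and Mir125b1 together came to 115845 ± 11449 and 89013 ± 26700 (SD, n = 3). Mir99a was too rare to move the sum of its seed family. Mir351, which has the miR-125 seed at another locus, had 333 ± 34.8 and 311 ± 27.6 normalized reads (SD, n = 3), a log2 fold change of -0.096 (limma adjusted p = 0.961).

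**Figure D2:**
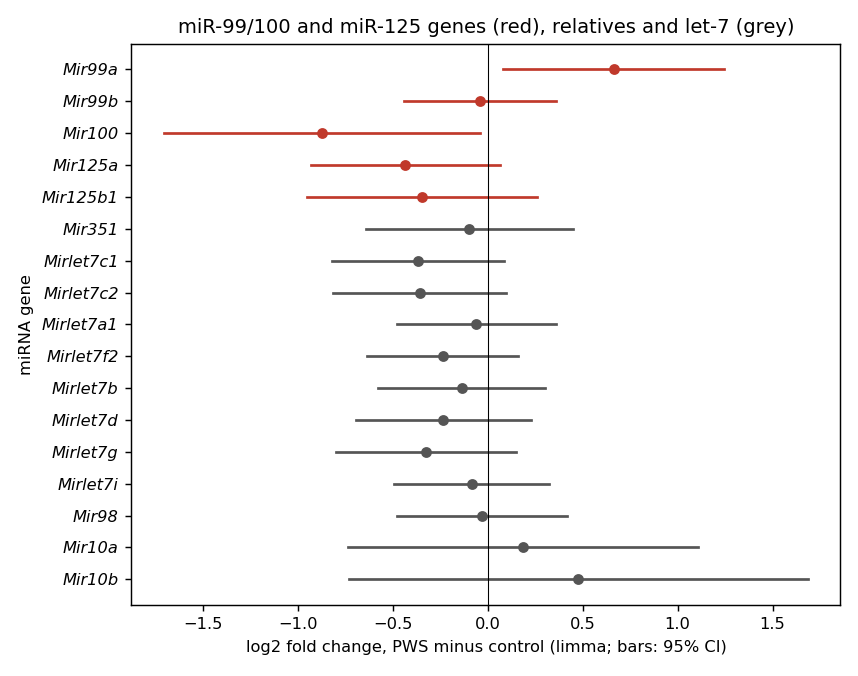
Log2 fold changes, PWS minus control, with 95% intervals from limma for the 5 genes (red), their relatives and the let-7 genes (grey). The intervals of Mir99a (0.079 to 1.25) and Mir100 (-1.71 to -0.043) leave out 0 before adjustment for multiple testing, in opposite directions.

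The let-7 genes with a row, 9 in all, were taken as a list, of which 8 were tested; Mirlet7c1 is the cluster partner among them, and the others lie elsewhere. limma called 0 of 8 and all 8 log2 fold changes were below 0, from -0.37 to -0.059, with a median of -0.23. Without PWS line 19-4, Mirlet7a1 and Mirlet7b lay at 0.0048 and 0.010. Over the 20 alternatives the direction held in 16 for Mirlet7a1, 19 for Mirlet7b and Mirlet7i, and 20 for the other 5. Mirlet7c1, which lies next to Mir99a, had 150681, 161008 and 123913 normalized reads in control lines 5-9, 2 and 16, and 115417, 138761 and 87568 in PWS lines 3, 19-1 and 19-4. The groups overlapped, and line 19-4 was again the lowest (log2 fold change -0.37, limma adjusted p = 0.860; -0.19 without that line). Mir99a and Mirlet7c1 thus lay on opposite sides of 0.

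The ratio of partners within a line cancels the size factor of the library, apart from the pseudocount of 1 added before logs, which matters for Mir100. It was compared with an exact two-sided permutation test, in which 3 lines against 3 can give no p below 0.1, so no ratio could pass 0.05. Of 12 planned ratios, 5 were tested and p-values were adjusted over these 5. In 1 of them, Mir125a was to be set against the sum of Mir125b1 and Mir125b2 and was set against Mir125b1 alone; the 7 not tested each lacked a gene. Mir99a reads amounted to 0.343%, 0.188% and 0.346% of Mirlet7c1 reads in control lines 5-9, 2 and 16, and to 0.568%, 0.544% and 0.614% in PWS lines 3, 19-1 and 19-4. The PWS values lay close together and above all control values. On the log2 scale the means were -8.47 ± 0.51 and -7.44 ± 0.089 (SD, n = 3), a difference of 1.03 (exact permutation p = 0.1, adjusted p = 0.167). The difference was 0.74 without control line 2 and at least that when any other line was left out.

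On chromosome 1, Mir99b reads were 0.708, 0.629 and 0.722 times those of Mir125a in control lines 5-9, 2 and 16, and 0.748, 0.784 and 1.24 times in PWS lines 3, 19-1 and 19-4. The groups did not overlap, but PWS lines 3 and 19-1 lay just above the controls and only in line 19-4 did Mir99b exceed Mir125a. The log2 difference was 0.39 (exact permutation p = 0.1, adjusted p = 0.167), and 0.16 without line 19-4 (exact permutation p = 0.2). The share of miRNA reads taken by Mir125a was 0.637% in line 19-4 and 0.969% to 1.36% in the other lines, whereas that of Mir99b was 0.787% in line 19-4 and 0.686% to 0.856% in the others. In line 19-4 the share of Mir125a thus lay outside the range of the other lines and that of Mir99b within it.

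Between the paralogs Mir99b and Mir99a, the ratio was 139, 252 and 174 in control lines 5-9, 2 and 16, and 110.1, 101 and 126 in PWS lines 3, 19-1 and 19-4. The PWS ratios were all lower, with a log2 difference of -0.70 (exact permutation p = 0.1, adjusted p = 0.167) and -0.47 without control line 2. This ratio and that to Mirlet7c1 share the Mir99a values and are not separate evidence. In the last 2 ratios the groups overlapped. Mir125a over Mir125b1 ran from 11.6 to 17.2 over all lines (log2 difference -0.089, exact permutation p = 0.7, adjusted p = 0.7), and Mir100 over Mir125b1, with few Mir100 reads, had a log2 difference of -0.53 (exact permutation p = 0.2, adjusted p = 0.25). That last value was -0.85 without PWS line 19-4, -0.37 without PWS line 3 or 19-1, and -0.29 with a pseudocount of 5.

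**Figure D3:**
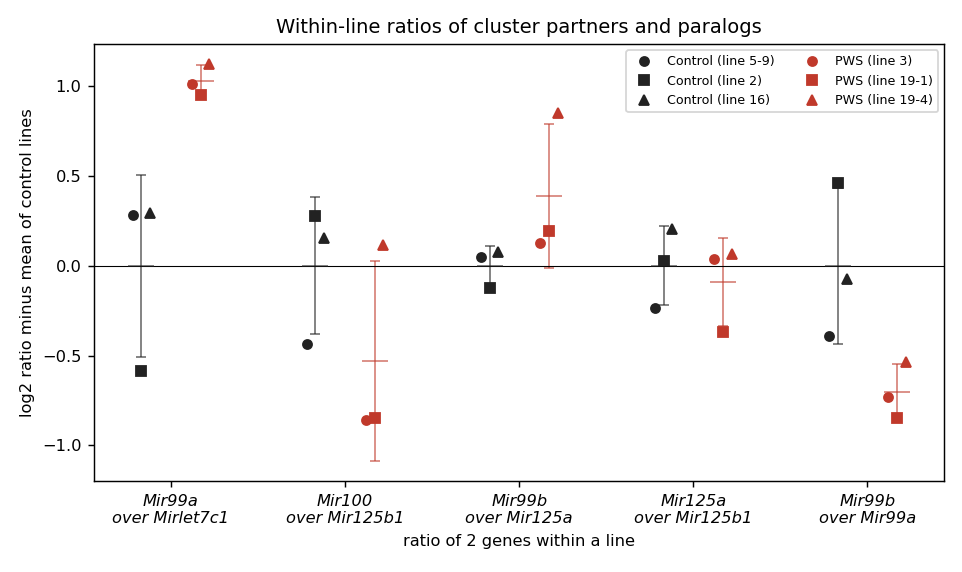
Log2 ratio of 2 genes within each line, less the mean of the 3 control lines, with group mean and SD as bars (black, control; red, PWS). The 3 PWS lines lie together near 1.03 for Mir99a over Mirlet7c1, while for Mir99b over Mir125a line 19-4 lies far from the other PWS lines.

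To place these profiles among other miRNA genes, the 227 other miRNA genes averaging 20 or more normalized reads were ranked by the SD over 6 lines of their log2 ratio to each member, a small SD meaning that the ratio changed little, whether the 2 genes varied together or were both steady. All ratios share libraries and depth, and the SDs are a description. For Mir125a the closest genes were Mir204 (SD 0.061) and Mir107 (SD 0.10); Mirlet7c1 from another cluster ranked 7 (SD 0.17), Mir125b1 ranked 14 (SD 0.21), and its own cluster neighbour Mir99b ranked 77 (SD 0.34). For Mir125b1 the closest were Mir484 (SD 0.097) and Mir24-2 (SD 0.12), with Mirlet7c1 at rank 10 and Mir125a at rank 13. Mir125a, Mir125b1 and Mirlet7c1 were each lowest in line 19-4, but so was Mir99b, which varied little. Reads of Mir125b1 and Mirlet7c1 cannot be tied to 1 locus, since other genes give the same mature RNAs, so these ranks describe products rather than clusters.

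Mir99b was closest to Mir30d (SD 0.067) and Mir27b (SD 0.077), with Mirlet7a1 at rank 9 (SD 0.13) and Mir125a at rank 120. Mir99a was closest to Mir192 (SD 0.20) and Mir7b (SD 0.23), and Mir100 was too rare to be ranked. The SDs of different members are not comparable, since each also depends on how much the member itself varied. Its cluster partner Mirlet7c1, with reads that may come from Mirlet7c2, ranked 153 of 227 (SD 0.65), past the median SD of 0.56.

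**Figure D4:**
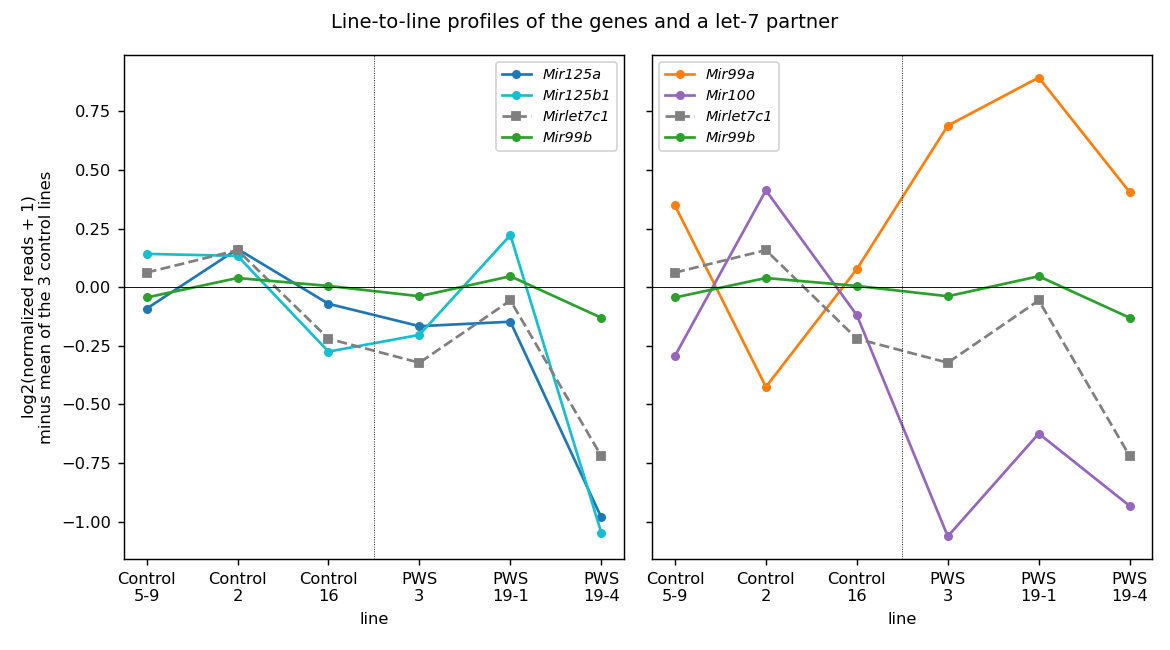
Log2(normalized reads + 1) in each line, less the mean of the 3 control lines, for Mir125a and Mir125b1 (left) and Mir99a and Mir100 (right), each with Mir99b and Mirlet7c1 for reference; lines join the points of a gene and carry no order. Mir125a, Mir125b1 and Mirlet7c1 fall together in PWS line 19-4, Mir99b stays near 0 in all lines, and Mir99a and Mir100 lie on opposite sides of 0 in the PWS lines.

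The libraries also held fragments of messenger RNAs, few per gene, and 24 known targets of the 2 families were looked up. Of these 22 had a row, 4 were tested and limma called 0; all 4 had log2 fold changes below 0, with a median of -0.47. The lowest was that of Rptor, which encodes Raptor and had 6.89, 13.1 and 3.86 normalized reads in control lines 5-9, 2 and 16 and 4.16, 4.20 and 0 in PWS lines 3, 19-1 and 19-4 (log2 fold change -1.44, limma adjusted p = 0.860). Mapk14, a stress kinase, had 9.85, 19.6 and 13.1 in controls and 7.13, 8.40 and 6.59 in PWS lines (log2 fold change -0.81, limma adjusted p = 0.835). It lay lower without overlap, as did 6.29% of all genes tested. Akt1 and Stat3, the other 2 tested, had log2 fold changes of -0.044 and -0.13. Targets too rare to be tested did not all run lower. Igf1r lay higher in every PWS line, with 2.95, 2.61 and 3.09 normalized reads in control lines 5-9, 2 and 16 and 6.53, 4.20 and 6.59 in PWS lines 3, 19-1 and 19-4. At a few reads per line these values say little about the messenger RNAs, and Lin28a and Lin28b, the targets that also control let-7, had 0 reads in all lines. Of 6 host transcript symbols, Spaca6 had 24 reads and Usp25 8 reads over all lines, and 0 reached the test.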

How the data were processed

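Small RNA libraries of 6 INS-1 lines (3 control, 3 PWS, 1 library each) were grouped by the labels. Per the study's methods, the authors made them with a miRNA kit with unique molecular identifiers and a size selection widened to small RNAs such as snoRNAs. The submitters' processing notes name UMI-tools 1.0.0, cutadapt 1.18, Bowtie2 2.3.4.2, featureCounts, HTSeq 0.11.2 and DESeq2, and the build Rnor_6.0. The authors deposited a signal per gene and library, read counts divided by DESeq2 size factors, in a table that adds ambiguous reads to every gene ("all", used here) and in another that leaves them out ("none"). The authors also deposited columns of log2 fold changes with their errors and p-values of their own comparison, which were not used. Of the values above 0, 100% were whole multiples of the column minimum (tolerance 0.001), so reads were recovered. All reads of the 5 genes were the same in both tables. Reads are summed per gene, so both hairpin arms and all length variants count together, and reads of near-identical genes cannot be placed with certainty.

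Genotypes were compared with limma-trend (limma 3.58.1, R 4.3.3) on log2(normalized reads + 1) across all genes averaging 5 or more normalized reads, with genotype as the only term, Benjamini-Hochberg adjustment over 4292 genes and calls at an adjusted p under 0.1, as in the study. Fold changes on this scale understate those of genes with few reads. Ratios within lines were compared by exact two-sided permutation over 6 lines. The alternatives were edgeR 4.0.16 and DESeq2 1.42.0 on recovered reads, other scalings, pseudocounts and filters, a threshold of 0.05, the table counted with "none", a replicate block, lines 19-1 and 19-4 averaged, and leaving out each line. Scripts were tested on simulated data. The text names the 5 genes, let-7 and miR-10 genes, cluster partners, the 2 closest miRNA genes of each member, and lists of targets, biogenesis factors, host transcripts and cell type markers. Mir351 was added for its seed. Members and lists were chosen with earlier results of these data known.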

Additional observations from a re-analysis of the deposited data

How the results depend on the processing

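None of the 5 genes was called under any of 20 alternatives (19 for Mir100, which a filter at a mean of 20 removes). The count over all genes, 55, ranged from 41 to 66 under other settings and from 44 to 58 when 1 line was left out. Mir99a, Mir125a and Mir100 kept their direction throughout. Mir99a ranged from 0.45 to 0.84 in log2 fold change and from 0.564 to 1.00 in limma, edgeR or DESeq2 adjusted p. The log2 fold change of Mir99b turned to 0.024 with upper-quartile scaling and to 0.054 with scaling by miRNA reads, which moved the median of all genes from 0.0048 to 0.067 and 0.097. With any 1 line removed it lay from -0.085 to 0.0038 for Mir99b, from -0.63 to 0.0092 for Mir125b1 (each above 0 without PWS line 19-4), from -0.57 to -0.16 for Mir125a and from -1.02 to -0.67 for Mir100. The log2 difference of Mir125a over Mir125b1 ranged from -0.21 to 0.051 and was above 0 without control line 16 or PWS line 19-1. The cause was not tested. With a block for the replicate number, 56 genes and 0 of the 5 were called and the ratio differences were as before. The labels do not say that the numbers pair the lines. Same-numbered lines correlated at 0.414, 0.218 and -0.0574 after removal of group means. With 3 lines per group, removing the mean ties the values together, so these correlations cannot decide whether libraries were handled in pairs. Depth limits Mir100, which had 5 to 16 reads per line.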

Other observations

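Genes that make or regulate miRNAs were a list of 21, of which 19 had a row and 7 were tested as messenger RNA fragments. limma called 0 of 7, and the median log2 fold change was 0.12, with 5 above and 2 below 0. Dgcr8, the RNA-binding partner of Drosha, had the most reads, with 481, 669 and 544 normalized reads in control lines 5-9, 2 and 16 and 484, 527 and 740 in PWS lines 3, 19-1 and 19-4, and the groups overlapped. Its mean over the 6 lines, 574, stood far above that of the next gene of the list, Tnrc6b (30.9). Whether the Dgcr8 reads were fragments of its messenger RNA was not tested, so they are no measure of it. Dicer1, which cuts the hairpin loop, had 16.7, 20.9 and 13.1 in controls and 12.5, 14.7 and 9.23 in PWS lines (log2 fold change -0.45, limma adjusted p = 0.887). Lin28a, Lin28b and Trim71, which act on let-7 maturation or are let-7 targets, were at 0 in all lines.

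The miR-10 genes, whose miR-10a-5p differs from the miR-99/100 group in its seed, were rare in these cells, with 26.4 ± 13.5 and 28.5 ± 11.8 normalized reads for Mir10a in control and PWS lines (SD, n = 3) and means of 4.81 and 6.43 for Mir10b. Its seed, in capitals, is ACCCUGU in place of ACCCGUA, shown here because the start looks alike.
rno-miR-10a-5p: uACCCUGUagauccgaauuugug

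Markers of other cells were read as lists. Blood markers, mostly Mir142, summed to 47.3 to 77.1 normalized reads in the controls and 50.4 to 79.1 in PWS lines. Fibroblast markers, of which Mir143 had reads and Mir145 was at 0, summed to 13.1 to 39.4 and 35.7 to 48.8. Neural Mir124 genes summed to 383 to 777 in controls and 152 to 464 in PWS lines. Exocrine markers summed to 4.92 to 15.4 and 2.10 to 6.59, with Cpa1, Prss1, Cela1 and Krt19 at 0, and the muscle markers with a row summed to at most 2.61. The liver marker Mir122 had no row. The part of these in any difference above was not tested.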
